A study of Homo sapiens with 12 samples.

Results

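The 44 genes described here act in DNA repair and in the checkpoints that sense damaged or unfinished DNA. They were chosen by name from 25680 gene symbols in the count tables and fall into 7 groups by role. Homologous recombination holds 10 (BRCA1, BRCA2, PALB2, BARD1, RAD51C, XRCC2, XRCC3, RAD54L, RAD54B and BLM). The MRN complex, which senses broken ends, holds 3 (MRE11A, RAD50 and NBN), and 6 encode checkpoint kinases and their activators (ATM, ATR, ATRIP, TOPBP1, CHEK1 and CHEK2). The Fanconi anaemia pathway holds 9 (FANCA, FANCC, FANCD2, FANCE, FANCG, FANCI, FANCL, FANCM and BRIP1) and mismatch repair 4 (MSH3, MSH6, PMS2 and EXO1). Base excision and single-strand break repair holds 8 (UNG, OGG1, NTHL1, APEX1, PARP1, PARP2, XRCC1 and LIG3), and end joining 4 (XRCC5, XRCC6, PRKDC and LIG4). Their RNA was measured by sequencing in MM.1S and U266, both established human multiple myeloma cell lines, that is, lines of malignant plasma cells. MM.1S cells with 6 µM IT848, MM.1S cells with DMSO, U266 cells with 6 µM IT848 and U266 cells with DMSO made up the 4 groups, each of 3 libraries. The labels call IT848 an NF-kB inhibitor and DMSO the control. Exposure was 6 h throughout, and no other agent or genetic change is named for any group. Each line stands for 1 tumour. Whether separate cultures were used within a group is not in the labels. P-values rest on the spread of libraries within groups, estimated jointly over all 12 libraries, and that spread may be technical.

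Homologous recombination copies an intact sister chromatid to mend a break and therefore works in cells that have replicated their DNA, whereas end joining ligates broken ends directly in any phase of the cell cycle. The Fanconi anaemia proteins unhook crosslinks between strands and pass the break to recombination, mismatch repair corrects copying errors behind the replication fork, and base excision repair replaces single damaged bases. ATM responds to breaks and ATR to stalled forks, and through CHEK2 and CHEK1 they hold the cell cycle. Many of these genes are known to be transcribed most strongly around the start of DNA synthesis, under the control of E2F factors. Myeloma cells carry frequent breaks and translocations, and several of the enzymes, PARP1 among them, are drug targets.

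The libraries held 50627690 to 72039748 transcript counts, in which a read is repeated for each transcript it overlaps. Each of 8 plasma cell genes reached 1 CPM (counts scaled to the library total) in every library, with summed levels of 6013 to 6198 CPM in MM.1S with IT848, 6297 to 6395 in MM.1S with DMSO, 2760 to 2854 in U266 with IT848 and 3198 to 3394 in U266 with DMSO. These sums hide opposite moves. In MM.1S mean SLAMF7 was 3755 CPM with IT848 and 2796 with DMSO, and TNFRSF17 131 and 108.5. Lower with IT848 there were SDC1 (318 and 655 CPM), IRF4 (862 and 1279), XBP1 (670 and 988), PRDM1, POU2AF1 and CD38. In U266 SLAMF7 was higher with IT848 (905.5 and 652 CPM) and the rest were lower. The 5 T and NK cell genes summed to 0.889 to 1.42 CPM over all libraries, and 5 myeloid and 5 epithelial genes to at most 6.76 and 4.45 CPM. The 5 stromal genes, COL1A1 highest among them, summed to 17.7 to 22.9 CPM with IT848 and 12.2 to 15.9 CPM with DMSO in MM.1S, and to 28.8 to 35.0 CPM with IT848 and 22.4 to 26.9 CPM with DMSO in U266. The 5 erythroid genes summed to 4.22 to 5.43 CPM with IT848 and 2.19 to 2.28 CPM with DMSO in MM.1S, and to 1.06 to 1.17 CPM with IT848 and 0.779 to 1.56 CPM with DMSO in U266. The stromal sums were higher with IT848 in both lines and the erythroid sums in MM.1S, and their part in the members' responses was not tested. Transcripts that mark the other line stood out in a pair of the libraries that were checked. The 8 MM.1S marker genes stood at 0.866% of their MM.1S level in U266 IT848 replicate 1, and at 0.0750% and 0.0773% in its 2 fellow replicates. For 15 U266 marker genes the figure was 0.395% of their U266 level in MM.1S DMSO replicate 2. For the remaining MM.1S libraries, those with IT848 included, no gene was low enough in the MM.1S DMSO libraries to mark U266. Those DMSO libraries included replicate 2 with its U266 transcripts. The 15 genes used for replicate 2 were not tried in the other MM.1S libraries. Reads of U266 were therefore not looked for in them. Counts of changed members without both libraries stand beside the main ones below.

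Most of these genes were lower with IT848 in MM.1S, and few changed in U266. In MM.1S, 35 of the 44 fell and 1, LIG4, rose at an adjusted p below 0.05 by edgeR's quasi-likelihood test, against 19.6% of all 16782 genes tested that fell and 18.7% that rose (38.3% in either direction). The falls were modest: 7 members fell by more than 0.5 on the log2 scale (UNG, BRIP1, PRKDC, FANCA, EXO1, XRCC3 and BLM) and 0 by 1 or more. The median log2 fold change over the 44 was −0.32, against −0.01 over all genes tested. In all 35 fallen genes the 3 IT848 libraries lay below the 3 DMSO libraries. RAD50 adds 1 more with that order and no call, making 36 of 44, against 24.9% of all genes. All 44 members passed the low-count filter.

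In U266, 3 members fell (OGG1, RAD50 and UNG) and 1, BLM, rose, against 4.98% of all genes that fell and 4.03% that rose (9.01% in either direction), so these shares are near the background. The median over the 44 was −0.04, against 0.01 over all genes tested, and 6 members (13.6%) had an unadjusted p below 0.05, against 20.8% of all genes. The IT848 libraries lay below the DMSO libraries for 11 of the 44, a larger share than the 14.6% of all genes. They lay above them for 2 of the 44, a smaller share than the 14.3% of all genes. Called or not, 30 members had a log2 fold change below 0 and 14 above, against 8096 and 8647 of all genes tested. Set against each other, the responses of the lines differed for 26 members: 25 were lower in MM.1S and 1, RAD50, was higher, against 8.94% and 8.49% of all genes (17.4% in either direction). Without both libraries carrying the other line's transcripts, 34 members fell and 1 rose in MM.1S, 2 fell and 1 rose in U266, and the response difference was called for 20, all lower in MM.1S. In bulk RNA a fall within every cell cannot be told apart from a fall in the number of cells that express the gene.

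**Figure D1:**
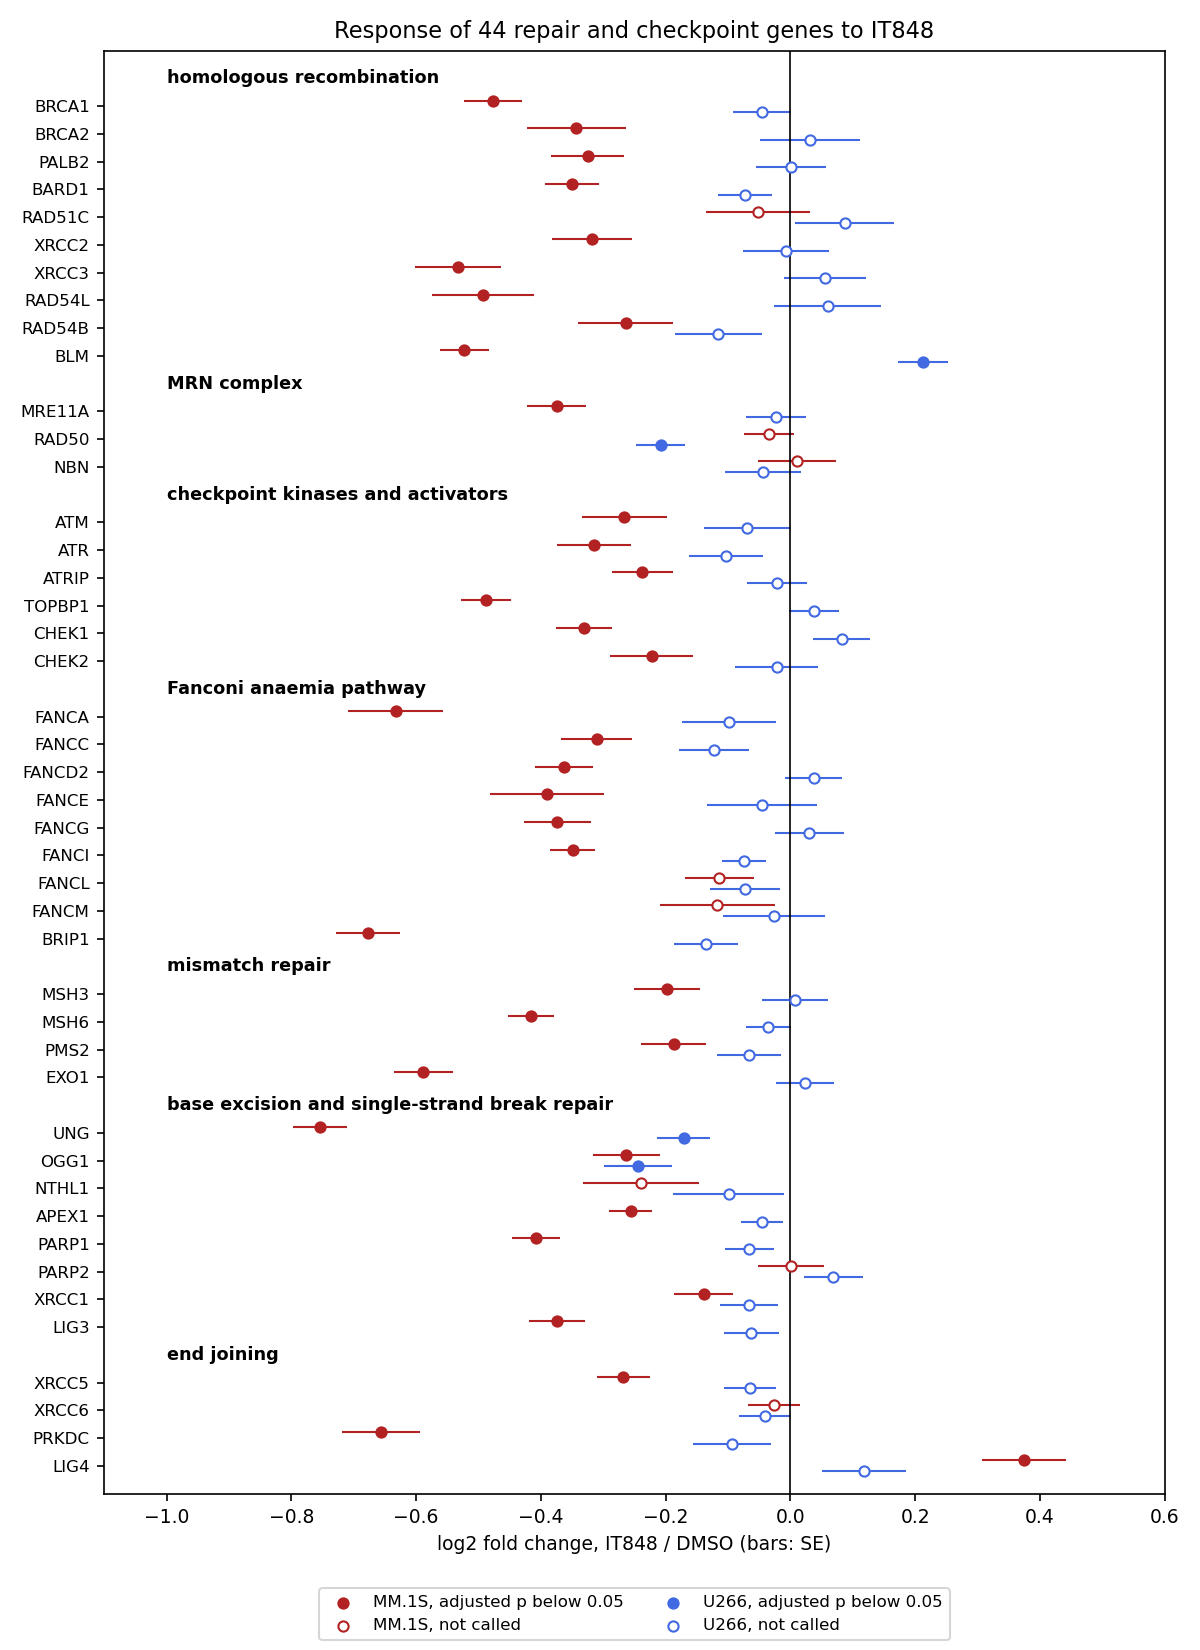
Log2 fold change of IT848 over DMSO for the 44 genes, by role, in MM.1S (red) and U266 (blue), with bars for the standard error and filled points for an adjusted p below 0.05. Most red points lie left of 0, from −0.75 for UNG to −0.14 for XRCC1 among the 35 falls, while the blue points stay between −0.24 and 0.21.

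In MM.1S the counts of long transcripts moved with treatment and also with replicate number, and the members are long. Their most counted transcripts had a median of 4022 bases, from 1067 to 13508, against 2838 over all genes tested. Spearman's correlation of length with a library's deviation from its line's mean was taken across 10595 genes. For replicates 1, 2 and 3 the correlation was 0.032, −0.321 and −0.458 in MM.1S with IT848, and 0.417, 0.338 and 0.158 in MM.1S with DMSO. It was −0.222 to 0.107 in U266 with IT848 and −0.007 to 0.190 in U266 with DMSO. With that trend taken out, 36 members fell in MM.1S, the median was −0.29, 2 calls ended and 3 were gained. The calls that ended were those of BRCA2, of 11386 bases (−0.15, adjusted p 0.133), and ATM, of 13147 bases (−0.04, adjusted p 0.517). FANCL (−0.20, adjusted p 0.00689), RAD51C (−0.19, adjusted p 0.0290) and NTHL1 (−0.43, adjusted p 0.000529) were called lower in that setting.

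Since the members fell together in MM.1S, their promoters were searched for letters that E2F factors are known to bind on either strand, namely TTCCCGC and, as variants of it, TTGGCGC and also TTCGCGC. RefSeq windows on GRCh38.p14, of 250 bases before to 50 after a gene's start, were at hand for 39 of the 44. At least 1 window held such letters in 23 of the 39 members (59%), against 20.2% of 12587 tested genes with a window. Counted per window, since some genes have several, the share was 50.9% of 57 windows of members, against 15.2% of 18187 windows of tested genes and 11% of all 35116. The letters occurred in 20 of the 31 members that fell and in 3 of the 7 that were not called, namely FANCL, PARP2 and XRCC6, and not in the windows of LIG4. Fallen members without them were BRCA2, PALB2, MRE11A, ATM, ATR, ATRIP, CHEK1, CHEK2, PMS2, APEX1 and LIG3. The members were chosen by name as repair genes, so their share describes that list. Whether the letters bear on the fall was not tested. CCAAT, bound by NF-Y, stood in 53.8% of members and 43.1% of tested genes. TTTGAA, the core of the cell cycle element CHR, stood in 12.8% and 14.5%, and TGACTCA, bound by AP-1, in 0 of 39 members and 5.08% of tested genes. No motif searched contains another. A match is a description of the sequence and shows no binding. The windows below belong to the 4 members with 1 window each whose MM.1S levels fell most, and capitals mark the E2F letters on either strand. BRIP1 lies at chr17:61863479-61863778 (minus strand), FANCA at chr16:89816598-89816897 (minus), XRCC3 at chr14:103715402-103715701 (minus) and BLM at chr15:90717096-90717395 (plus). Matches begin 2 bases (BRIP1) and 21 bases (FANCA) after the gene's start, 2 bases before it (XRCC3), and in BLM 74 before, 3 after and 22 after.
BRIP1: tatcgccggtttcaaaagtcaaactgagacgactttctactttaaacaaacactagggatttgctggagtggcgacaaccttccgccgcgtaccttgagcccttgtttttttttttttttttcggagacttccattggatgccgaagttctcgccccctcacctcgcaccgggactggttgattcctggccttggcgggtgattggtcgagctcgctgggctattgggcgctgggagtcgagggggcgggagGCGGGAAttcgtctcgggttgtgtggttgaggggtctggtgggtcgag
FANCA: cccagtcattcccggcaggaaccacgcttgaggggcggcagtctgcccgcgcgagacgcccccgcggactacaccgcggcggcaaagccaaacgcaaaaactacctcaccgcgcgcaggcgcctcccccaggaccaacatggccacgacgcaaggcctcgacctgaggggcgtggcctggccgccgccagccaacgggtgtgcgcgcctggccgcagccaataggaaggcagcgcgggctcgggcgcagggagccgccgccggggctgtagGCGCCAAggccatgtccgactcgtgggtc
XRCC3: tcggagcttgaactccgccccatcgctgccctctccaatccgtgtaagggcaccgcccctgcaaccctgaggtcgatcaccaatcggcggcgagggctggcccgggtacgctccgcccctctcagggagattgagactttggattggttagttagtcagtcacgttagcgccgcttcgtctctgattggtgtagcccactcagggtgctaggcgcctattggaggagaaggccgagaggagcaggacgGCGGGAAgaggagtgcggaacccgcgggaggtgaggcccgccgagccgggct
BLM: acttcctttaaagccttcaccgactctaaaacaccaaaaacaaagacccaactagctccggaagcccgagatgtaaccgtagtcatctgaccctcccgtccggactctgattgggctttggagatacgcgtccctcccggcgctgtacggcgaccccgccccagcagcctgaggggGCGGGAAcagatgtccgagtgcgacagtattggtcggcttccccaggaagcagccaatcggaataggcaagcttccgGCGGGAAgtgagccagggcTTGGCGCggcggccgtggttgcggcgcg

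Among homologous recombination genes, 9 of 10 fell in MM.1S and the other, RAD51C, was not called. XRCC3, whose product works with RAD51C to resolve recombination intermediates, had 21.2, 20.7 and 20.4 CPM in MM.1S with IT848, against 30.6, 30.0 and 29.6 CPM with DMSO. The treated libraries all lay below the controls, at a log2 fold change of −0.53 ± 0.07 (SE; adjusted p 3.50e-05). In U266 it had 44.5, 40.4 and 44.4 CPM with IT848 and 45.3, 36.9 and 42.4 CPM with DMSO, ranges that overlap (0.06 ± 0.07, adjusted p 0.714). The response difference was −0.59 ± 0.10 (MM.1S minus U266, adjusted p 0.000810).

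BLM, the helicase that dissolves joined recombination intermediates, was called in opposite directions. In MM.1S it had 108, 102 and 103 CPM with IT848, against 154, 144 and 152 CPM with DMSO. In U266 it had 189.9, 187 and 188 CPM with IT848, against 162, 167 and 159.7 CPM with DMSO. Treated libraries lay wholly below the controls in MM.1S (−0.52 ± 0.04, adjusted p 2.16e-07) and wholly above them in U266 (0.21 ± 0.04, adjusted p 0.00293). Its response difference, −0.73 ± 0.06 (adjusted p 1.13e-06), was the largest among the 44. BLM was the only member called higher in U266, and both calls held under all 21 alternative settings run.

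BRCA1, which takes part in the resection of broken ends, fell by 0.48 ± 0.05 on the log2 scale in MM.1S (adjusted p 2.27e-06). BARD1, the BRCA1 partner in the ubiquitin ligase, was at −0.35 ± 0.04, PALB2, which bridges BRCA1 to BRCA2, at −0.32 ± 0.06, and BRCA2, which works in strand exchange, at −0.34 ± 0.08. The motor protein genes RAD54L and RAD54B were at −0.49 ± 0.08 and −0.26 ± 0.08, and XRCC2, a recombination gene, at −0.32 ± 0.06. In U266 these 7 genes lay between −0.12 (RAD54B) and 0.06 (RAD54L), none of them called. The RAD54B fall in MM.1S lost its call without DMSO replicate 3 (adjusted p 0.0571) or IT848 replicate 1 of MM.1S (adjusted p 0.0906), and with only the MM.1S libraries in the fit (adjusted p 0.0628).

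RAD51C, the remaining recombination gene, had 31.5, 31.6 and 41.0 CPM in MM.1S with IT848, against 33.8, 37.0 and 37.1 CPM with DMSO. Replicate 3 stood above the controls and the other 2 below them (−0.05 ± 0.08, adjusted p 0.660). Without that replicate the log2 fold change was −0.18 and the call was made (adjusted p 0.0184). It was also made with all libraries and the length trend taken out (−0.19, adjusted p 0.0290).

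Of the 3 MRN complex genes, the nuclease gene MRE11A was the 1 called in MM.1S. It had 69.7, 71.7 and 68.4 CPM in MM.1S with IT848, against 93.1, 92.0 and 86.9 CPM with DMSO. These ranges did not overlap (−0.37 ± 0.05, adjusted p 2.79e-05), while in U266 IT848 and DMSO libraries overlapped (−0.02 ± 0.05). NBN, which recruits ATM to the complex, was at 0.01 ± 0.06 in MM.1S and −0.04 ± 0.06 in U266.

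RAD50, the tethering subunit, showed the other pattern. It had 61.6, 61.0 and 61.7 CPM in MM.1S with IT848, against 62.6, 63.0 and 63.2 CPM with DMSO, and 70.9, 72.5 and 71.0 CPM in U266 with IT848, against 84.2, 84.2 and 79.2 CPM with DMSO. The treated libraries were lower in both lines, by little in MM.1S (−0.03 ± 0.04, adjusted p 0.528) and further in U266 (−0.21 ± 0.04, adjusted p 0.00316). The response difference of 0.17 ± 0.06 (adjusted p 0.0443) was lost in 10 of the 12 fits without 1 library. For MRE11A the response difference was −0.35 ± 0.07 (adjusted p 0.00275).

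All 6 checkpoint genes fell in MM.1S, and none was called in U266, where they lay between −0.10 and 0.08. TOPBP1, the scaffold that switches on ATR, had 74.0, 72.8 and 69.0 CPM in MM.1S with IT848, against 102, 99.7 and 100.4 CPM with DMSO. It fell by 28.7%, with every treated library below every control (−0.49 ± 0.04, adjusted p 4.46e-07). In U266 it had 110.5, 115 and 114 CPM with IT848 and 109, 111 and 112 CPM with DMSO, overlapping ranges (0.04 ± 0.04).

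CHEK1, the kinase through which ATR stops the cycle, had 211, 222 and 223 CPM in MM.1S with IT848, against 267, 280.4 and 279 CPM with DMSO (−0.33 ± 0.05, adjusted p 5.29e-05). Treated and control ranges were apart in MM.1S and overlapped in U266, at 119, 116 and 124 CPM with IT848 and 107, 117 and 116 CPM with DMSO (0.08 ± 0.05). The response difference was −0.52 ± 0.06 for TOPBP1 and −0.41 ± 0.06 for CHEK1 (adjusted p 2.73e-05 and 0.000570). ATR itself was at −0.31 ± 0.06 in MM.1S, ATRIP, which brings ATR to single-stranded DNA, at −0.24 ± 0.05, and ATM at −0.27 ± 0.07. CHEK2, the kinase downstream of ATM, was at −0.22 ± 0.07, and its call ended without DMSO replicate 3 (adjusted p 0.0661) or IT848 replicate 1 of MM.1S (adjusted p 0.103). For ATM, ATR and CHEK2 the response difference was not called with all 12 libraries and no replicate block (adjusted p 0.182, 0.0985 and 0.160). Without MM.1S IT848 replicate 1 that of ATR was called (adjusted p 0.0341).

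The Fanconi anaemia pathway had 7 of 9 genes down in MM.1S, and in U266 its genes lay between −0.14 and 0.04, none of them called. BRIP1, the helicase that binds BRCA1, had 16.6, 16.8 and 16.2 CPM in MM.1S with IT848, against 27.0, 26.4 and 26.0 CPM with DMSO. It fell by 37.5%, with ranges far apart (−0.68 ± 0.05, adjusted p 1.89e-07). In U266 it had 18.1, 19.5 and 18.1 CPM with IT848, against 20.1, 20.9 and 20.2 CPM with DMSO; the treated libraries were again lower, yet the change of −0.14 ± 0.05 was not called (adjusted p 0.131). The response difference was −0.54 ± 0.07 (adjusted p 0.000183).

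FANCA, a subunit of the core ligase complex, had 58.7, 54.2 and 49.4 CPM in MM.1S with IT848, against 90.5, 82.8 and 78.4 CPM with DMSO, ranges that did not overlap (−0.63 ± 0.08, adjusted p 2.02e-05). In U266 it had 72.2, 66.0 and 62.8 CPM with IT848 and 74.3, 65.9 and 74.9 CPM with DMSO, ranges that did (−0.10 ± 0.08). The other core subunit genes FANCE, FANCG and FANCC were at −0.39 ± 0.09, −0.37 ± 0.05 and −0.31 ± 0.06 in MM.1S. FANCD2 and FANCI, the pair that the core complex marks with ubiquitin, were at −0.36 ± 0.05 and −0.35 ± 0.04. FANCL, the ubiquitin ligase subunit, and FANCM, the DNA translocase that anchors the complex, were not called in MM.1S (−0.11 ± 0.06 and −0.12 ± 0.09) or in U266 (−0.07 ± 0.06 and −0.03 ± 0.08). With the length trend taken out, FANCL was called lower in MM.1S, at −0.20 (adjusted p 0.00689). FANCM had the lowest FPKM of the 44 in MM.1S with DMSO (reads per length and library total, 0.941). The approximate 95% interval of its log2 fold change, −0.30 to 0.06, holds falls of the size seen for ATM or MSH3.

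All 4 mismatch repair genes fell in MM.1S. EXO1, the exonuclease that removes the mismatched strand and also resects breaks, had 79.6, 84.4 and 84.9 CPM in MM.1S with IT848, against 121.5, 121 and 132 CPM with DMSO (−0.59 ± 0.05, adjusted p 3.52e-07). Its levels in U266 were 139, 143 and 145 CPM with IT848 and 139, 146 and 135.5 CPM with DMSO (0.02 ± 0.05). The groups were apart in MM.1S and overlapped in U266, with a response difference of −0.61 ± 0.07 (adjusted p 3.04e-05).

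MSH6, which finds base mismatches, had 318, 298 and 307 CPM in MM.1S with IT848, against 413, 413 and 406 CPM with DMSO (−0.42 ± 0.04, adjusted p 8.77e-07). All treated MM.1S libraries were lower, whereas the U266 libraries, at 335, 338 and 339 CPM with IT848 and 338, 358 and 342 CPM with DMSO, overlapped (−0.04 ± 0.04). MSH3, which finds larger loops, and PMS2, the endonuclease subunit, fell less, at −0.20 ± 0.05 and −0.19 ± 0.05, and their response differences were not called (adjusted p 0.0727 and 0.279). PMS2 has 11 named pseudogene copies in the GENCODE release 29 annotation, so its count is uncertain.

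Base excision repair held the largest fall of the 44. UNG, the glycosylase that removes uracil from DNA, had 57.0, 58.4 and 61.8 CPM in MM.1S with IT848, against 99.5, 97.5 and 102 CPM with DMSO. The U266 libraries had 96.8, 95.5 and 100.1 CPM with IT848, against 109.7, 107 and 112 CPM with DMSO. The treated libraries lay below the controls in both lines. UNG fell by 40.7% in MM.1S (−0.75 ± 0.04, adjusted p 1.20e-08) and fell by 11.2% in U266 (−0.17 ± 0.04, adjusted p 0.0200), a response difference of −0.58 ± 0.06 (adjusted p 2.08e-05). The U266 call ended without DMSO replicate 1 (adjusted p 0.0764), DMSO replicate 3 (0.128), IT848 replicate 1 (0.0932) or IT848 replicate 2 (0.112), and without both libraries with reads of the other line (0.122).

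OGG1, the glycosylase for oxidized guanine, was the member that fell in both lines by a similar amount. It had 65.7, 67.2 and 69.8 CPM in MM.1S with IT848, against 79.4, 85.2 and 78.5 CPM with DMSO, and 48.4, 45.5 and 51.6 CPM in U266 with IT848, against 59.8, 55.8 and 56.8 CPM with DMSO. Neither line's groups overlapped, at −0.26 ± 0.05 in MM.1S and −0.24 ± 0.05 in U266 (adjusted p 0.00143 and 0.00975). The response difference was −0.02 ± 0.08, with an approximate 95% interval of −0.17 to 0.13. In U266 the call ended without DMSO replicate 1 or IT848 replicate 2 (adjusted p 0.0558 in each).

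PARP1, which detects strand breaks and marks proteins with poly(ADP-ribose), had 393, 368 and 356 CPM in MM.1S with IT848, against 488, 492 and 501 CPM with DMSO (−0.41 ± 0.04, adjusted p 1.80e-06). Its U266 levels were 145, 144 and 146 CPM with IT848, against 152, 151 and 153 CPM with DMSO; the treated libraries were lower in both lines, but the U266 change of −0.07 ± 0.04 was not called (adjusted p 0.386). Its relative PARP2 had 17.7, 19.1 and 17.7 CPM in MM.1S with IT848 and 17.8, 18.1 and 18.7 CPM with DMSO, at 0.00 ± 0.05, and overlapped in U266 too, with 67.5, 72.2 and 69.9 CPM with IT848 and 66.8, 68.9 and 64.0 CPM with DMSO (0.07 ± 0.05).

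APEX1, which cuts the strand where a base is missing, had 124, 122 and 126 CPM in MM.1S with IT848, against 144, 151 and 149.7 CPM with DMSO, so the groups were apart (−0.26 ± 0.03, adjusted p 4.86e-05). In U266 the change was −0.05 ± 0.03, not called. LIG3, a ligase that seals single-strand breaks, was at −0.37 ± 0.04 in MM.1S. XRCC1, the scaffold that holds LIG3, was at −0.14 ± 0.05 (adjusted p 0.0315), a call that ended in 15 of the 21 alternative settings, among them each of the 6 fits without 1 U266 library (adjusted p 0.0568 to 0.0697). It also ended without MM.1S DMSO replicate 1, 2 or 3 (adjusted p 0.0632, 0.0864 and 0.0710) and IT848 replicate 1 or 3 (0.113 and 0.114). NTHL1, a glycosylase for oxidized pyrimidines, was at −0.24 ± 0.09 (adjusted p 0.0552), and was called without DMSO replicate 1 or IT848 replicate 3 of MM.1S (adjusted p 0.0439 and 0.0320). NTHL1 was called in 6 of 21 alternative settings, among them the most counted transcript (adjusted p 0.0325) and the length trend taken out, where it stood at −0.43 (adjusted p 0.000529).

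**Figure D2:**
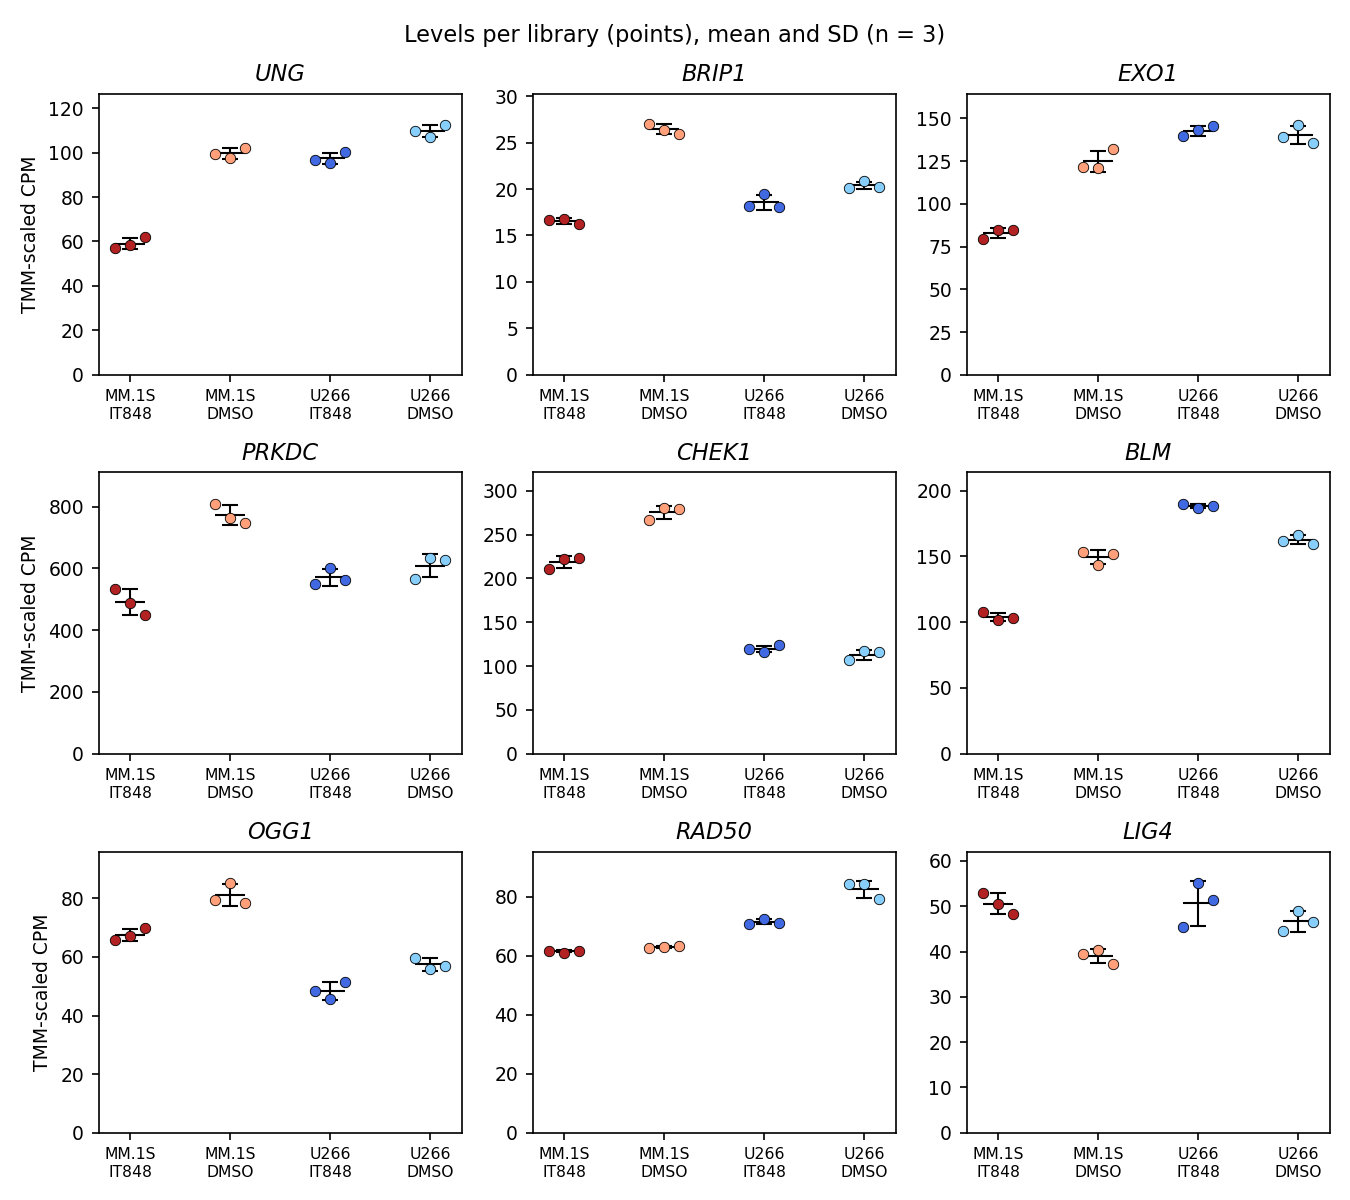
TMM-scaled CPM per library (points), with mean and SD of 3 libraries, for 9 of the members in the 4 groups, on axes that start at 0. UNG, BRIP1, EXO1, PRKDC and CHEK1 were lower with IT848 in MM.1S, BLM moved in opposite directions in the lines, OGG1 fell in both, RAD50 fell in U266, and LIG4 rose in MM.1S.

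End joining genes were called in both directions in MM.1S. PRKDC, the catalytic subunit of DNA-dependent protein kinase, had 532, 489.6 and 449 CPM in MM.1S with IT848, against 809.6, 763 and 746 CPM with DMSO (−0.66 ± 0.06, adjusted p 1.97e-06). All treated libraries were well below the controls. U266 had 548, 601 and 564 CPM with IT848 and 566, 634 and 626 CPM with DMSO, overlapping ranges (−0.09 ± 0.06), and the response difference was −0.56 ± 0.09 (adjusted p 0.000632).

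LIG4, the ligase of end joining, was the only member called higher in MM.1S. It had 52.9, 50.4 and 48.2 CPM with IT848, against 39.4, 40.3 and 37.3 CPM with DMSO, a rise of 29.6% with ranges apart (0.37 ± 0.07, adjusted p 0.000586). U266 libraries of the gene had 45.4, 55.1 and 51.4 CPM with IT848 and 44.5, 49.0 and 46.4 CPM with DMSO, ranges that overlap (0.12 ± 0.07, adjusted p 0.357). The response difference of 0.26 ± 0.10 was not called (adjusted p 0.0790), although it was in 6 of 20 alternative settings, among them without U266 IT848 replicate 2 (adjusted p 0.0268) or MM.1S IT848 replicate 3 (0.0462). The Ku subunits that bind broken ends differed: XRCC5, which encodes Ku80, fell in MM.1S (−0.27 ± 0.04, adjusted p 0.000195), while XRCC6, which encodes Ku70, was at −0.03 ± 0.04 there (adjusted p 0.655) and at −0.04 ± 0.04 in U266. XRCC6 has 5 named pseudogene copies, so its count is uncertain.

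Of the 35 members that fell in MM.1S, 25 had a called response difference and 10 did not (RAD54B, ATM, ATR, CHEK2, FANCC, FANCE, MSH3, PMS2, OGG1 and XRCC1). The 7 members called in neither line were RAD51C, NBN, FANCL, FANCM, NTHL1, PARP2 and XRCC6. The libraries compared in the MM.1S response and in the U266 response are not the same, but both tests use a spread estimated over all 12. The difference of responses compares all 12.

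Under DMSO the lines were set differently for most members, in both directions. Of the 44, 19 were higher and 19 lower in MM.1S than in U266, against 40.6% and 42.1% of all genes tested (82.6% in either direction), so the members' shares of 43.2% each are near the background. ATRIP, CHEK2, FANCC, FANCE, FANCI and XRCC1 were not called. The MM.1S libraries lay above the U266 libraries for 20 members and below them for 21, against 41.6% and 43.2% of all genes.

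PARP1 stood furthest apart upwards, at 488, 492 and 501 CPM in MM.1S with DMSO, against 152, 151 and 153 CPM in U266 with DMSO (log2 fold change 1.70 ± 0.04, adjusted p 1.28e-14). CHEK1 came next, at 267, 280.4 and 279 CPM in MM.1S with DMSO, against 107, 117 and 116 CPM in U266 with DMSO (1.28 ± 0.05). XRCC2 had 30.9, 27.4 and 27.1 CPM in MM.1S with DMSO, against 11.8, 13.0 and 12.9 CPM in U266 with DMSO, ranges that did not overlap (1.18 ± 0.07, adjusted p 2.76e-10). RAD54L, BARD1 and MRE11A followed at 1.11 ± 0.08, 0.95 ± 0.04 and 0.86 ± 0.05.

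PARP2 stood furthest apart downwards, at 17.8, 18.1 and 18.7 CPM in MM.1S with DMSO, against 66.8, 68.9 and 64.0 CPM in U266 with DMSO (−1.87 ± 0.05, adjusted p 6.02e-14). RAD51C had 33.8, 37.0 and 37.1 CPM in MM.1S, against 96.9, 96.7 and 93.3 CPM in U266 (−1.41 ± 0.08), and APEX1 144, 151 and 149.7 CPM, against 368, 366 and 371 CPM (−1.31 ± 0.03). None of these ranges overlapped. FANCM (−1.05 ± 0.09) and RAD54B (−0.91 ± 0.07) were also lower in MM.1S. The smaller line differences of BLM, FANCA, NTHL1 and XRCC5 lost their calls without 1 library. For FANCA this was U266 DMSO replicate 2 (adjusted p 0.0718) or MM.1S DMSO replicate 1 (0.0677), and for BLM it was MM.1S DMSO replicate 2 (0.0855). For NTHL1 it was U266 DMSO replicate 1 or 3 or MM.1S DMSO replicate 1 (0.0544, 0.0563 and 0.104), and for XRCC5 MM.1S DMSO replicate 1 or 2 (0.0681 and 0.0569).

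On the length-scaled FPKM of the most counted transcript, which allows levels of different genes to be set side by side, members ran between 0.941 for FANCM and 123 for PARP1 in MM.1S with DMSO. In U266 with DMSO they ran between 1.74 for BRCA2 and 146 for XRCC6. The ratio of PARP1 to PARP2 FPKM was 19.4 in MM.1S with IT848 and 25.7 in MM.1S with DMSO, against 1.97 in U266 with IT848 and 2.16 in U266 with DMSO. The ratio was further apart between the lines than between treatments.

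**Figure D3:**
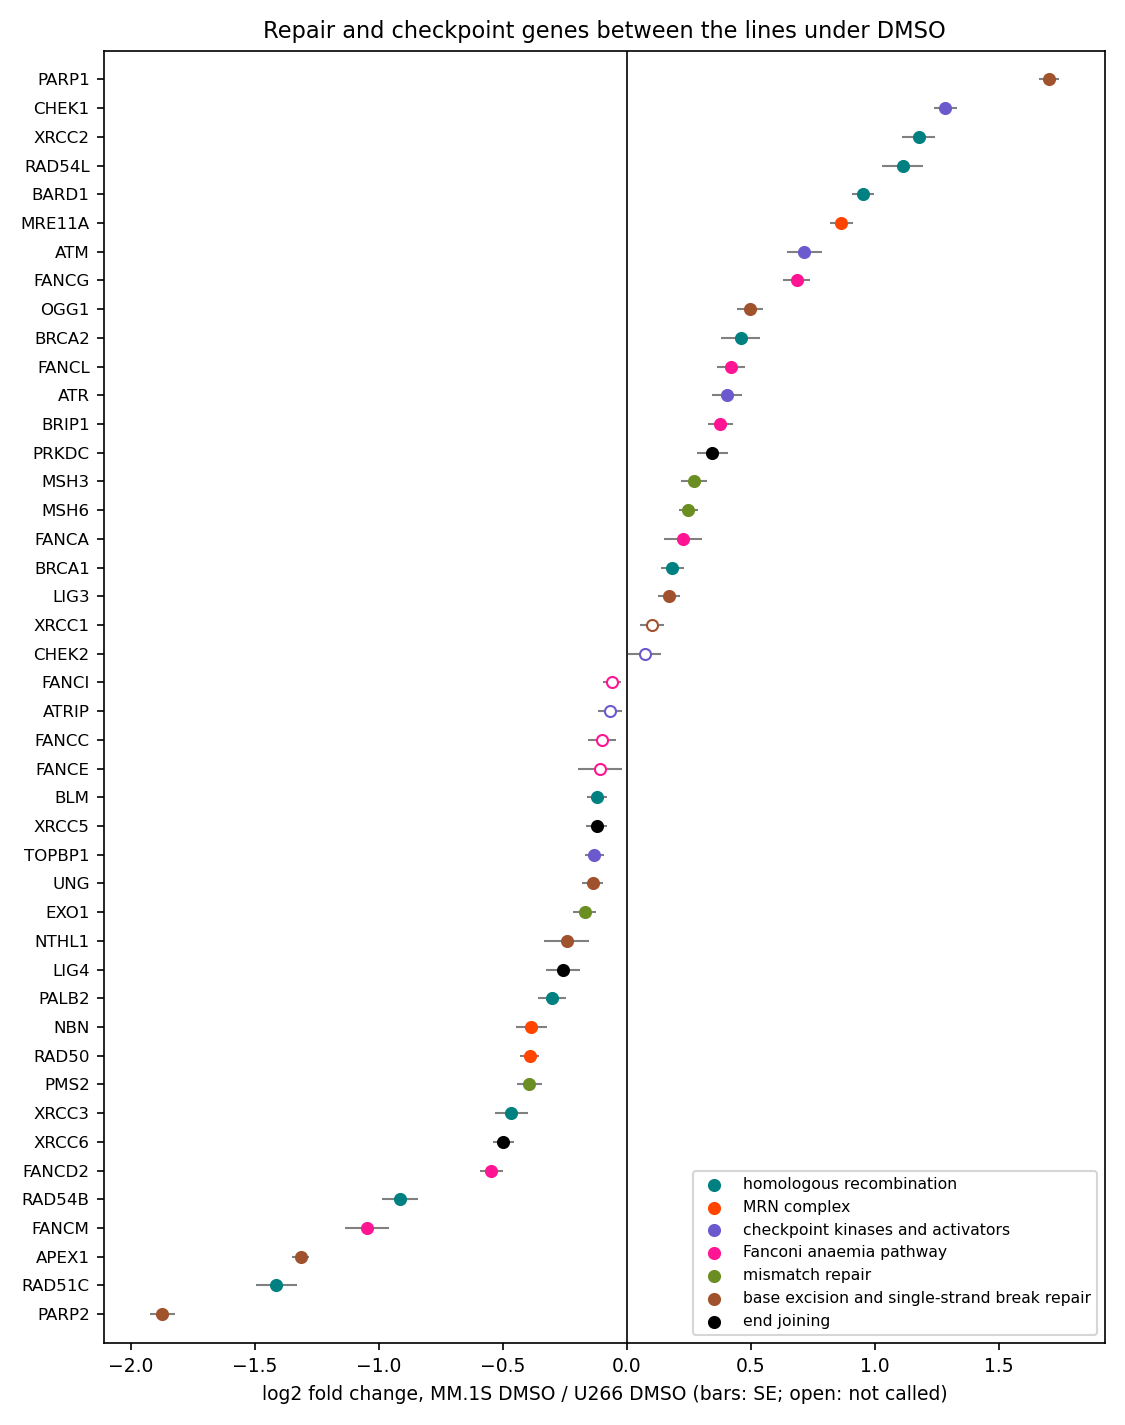
Log2 fold change of MM.1S over U266, both with DMSO, for the 44 genes in order of size, with bars for the standard error, colours for the role and open points for genes not called. Values run between 1.70 for PARP1 and −1.87 for PARP2, with 19 members called on each side.

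Among 82 further repair and checkpoint genes, of which 81 were tested, calls went both ways. The median log2 fold change in MM.1S was −0.32 over the 44 members and −0.05 over these genes, of which 27 fell and 14 rose. By role, falls outnumbered rises among 16 further recombination genes (8 fell, 2 rose), 19 checkpoint genes (9 fell, 2 rose), 12 Fanconi anaemia genes (3 fell, 2 rose) and 3 mismatch repair genes (2 fell, 0 rose), but not among 13 base excision genes (1 fell, 3 rose), 12 nucleotide excision genes (3 fell, 4 rose) or 6 end joining genes (1 fell, 1 rose). Of all genes tested, 19.6% fell and 18.7% rose. The median of the 12 Fanconi anaemia genes was 0.07. CLSPN, the claspin gene that links ATR to CHEK1 (−0.73 ± 0.04), and HELLS, a chromatin remodeller (−0.65 ± 0.05), fell most in MM.1S. RPA3, the small subunit of the single-strand binding protein (0.47 ± 0.13), and SHFM1, which encodes the BRCA2-binding protein DSS1 (0.46 ± 0.07), rose most. In U266 0 fell by edgeR's quasi-likelihood test and 3 rose, FIGNL1, an AAA ATPase (0.36 ± 0.05), SHFM1 (0.31 ± 0.07) and H2AFX, the histone phosphorylated at breaks (0.20 ± 0.05). At an unadjusted p below 0.05 there were 14 of the 81 (17.3%, against 20.8% of all genes), and DESeq2 called 6 lower and 4 higher. Without both libraries carrying the other line's transcripts, 24 fell and 10 rose in MM.1S, and 0 fell and 1 rose in U266.

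Genes of replication and of the step into DNA synthesis also fell in MM.1S. Of 37, 32 fell and 0 rose there by edgeR's quasi-likelihood test and by DESeq2, with a median of −0.43, and of −0.45 with the length trend taken out. DTL, a ubiquitin ligase adaptor of replicating cells (−0.75 ± 0.04), and MCM10, an initiation factor (−0.73 ± 0.04), fell most. In U266 3 rose and 1 fell: GINS3 (0.23 ± 0.07), ORC1 (0.20 ± 0.05) and MCM6 (0.20 ± 0.04) rose, and CCNE2, which encodes cyclin E2, was at −0.24 ± 0.06. At an unadjusted p below 0.05 the counts were 34 in MM.1S (91.9%, against 46.7% of all genes) and 8 in U266 (21.6%, against 20.8%). Without both of those libraries, 28 fell and 0 rose in MM.1S, and 0 fell and 2 rose in U266. Their part in the response of the members was not tested.

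**Figure D4:**
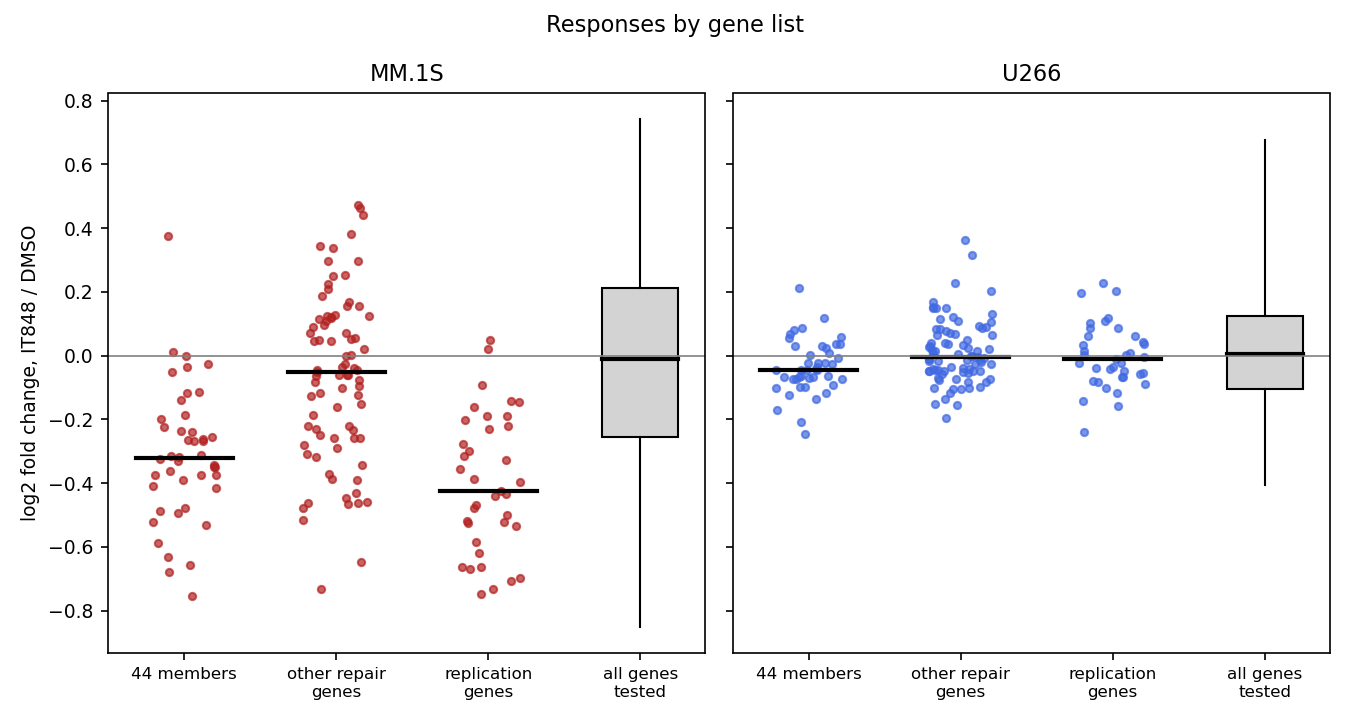
Log2 fold change of IT848 over DMSO in MM.1S (left) and U266 (right) for the 44 members, 81 other repair genes and 37 replication genes, each point a gene and each line a median. The grey box spans the quartiles of all 16782 genes tested and its whiskers run from the 5th to the 95th percentile; the medians in MM.1S are −0.32, −0.05 and −0.43, against −0.01 for all genes.

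Several members share exon sequence with a neighbour in the GENCODE release 29 annotation of GRCh38, and the strand setting of the counting is not given in the sources used here, so reads of both genes may mix. LIG3 shares 3754 bases with RFFL on the opposite strand, and RFFL rose in MM.1S (0.38 ± 0.05) where LIG3 fell. FANCA shares 1402 bases with ZNF276, which fell too (−0.39 ± 0.10). XRCC3 shares 1452 bases with KLC1 (0.09 ± 0.05) and MSH6 1644 bases with FBXO11 (−0.09 ± 0.05), neither of which was called. On the same strand, ATRIP shares 1515 bases with TREX1, which rose (0.18 ± 0.05), and RAD54B 2891 bases with FSBP (−0.17 ± 0.14, not called). RAD50 shares 7525 bases on its own strand with AC116366.3, more than any other member shares with a neighbour, and no symbol of that name was tested, so the RAD50 count is uncertain. CHEK2, UNG, PARP1, FANCD2 and MRE11A have 4, 2, 2, 1 and 1 named pseudogene copies, so their counts are uncertain as well. Transcripts of a gene are not separate measurements here: the most and the least counted BARD1 transcripts, of 8, changed by −0.35 and −0.34 in MM.1S, as reads were counted for each transcript they overlap.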

How the data were processed

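Total RNA of MM.1S and U266 cells was sequenced as paired-end Illumina libraries, 3 per group. The submitters' processing notes name STAR 2.5.2b and Trimmomatic 0.36, with bcl2fastq, featureCounts (Subread 1.5.2) and the hg19 build. The annotation was, like the strand setting and the handling of reads with several alignments, not given in the sources used here. A deposited table has 51780 transcripts with 3 values each. Per the file headers, the first is a read count per transcript. The deposited FPKM, scaled by the authors per length and library total, was used to compare levels between genes and to recover transcript lengths. The deposited TPM was scaled by the authors to a library total of 1e+06 and used as a check.

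Counts were summed per symbol. Reads overlapping several transcripts were counted for each, so a sum repeats reads and is compared within a gene. Library totals of 50627690 to 72039748 counts repeat reads in the same way, and with 1 transcript per gene they were 22887469 to 32913397. Counting error weighs most on the members with the fewest reads. By counts of the most counted transcript over all 12 libraries these were RAD54B (5213), NTHL1 (5792), OGG1 (6049), FANCE (6269) and FANCM (7328). No molecular identifiers are named. edgeR 4.0.16 (R 4.3.3) was used with TMM scaling and the default expression filter at a minimum count of 10. The fit had a mean per group over all 12 libraries and robust quasi-likelihood tests. The same steps were run on simulated counts, drawn independently, with changes set in the MM.1S IT848 libraries only. That simulation held no line difference, replicate structure or length trend, so it cannot show how these affect calls. P-values were adjusted by Benjamini-Hochberg over the 16782 genes that passed, with calls below 0.05. The 95% intervals are the log2 fold change ± 1.96 SE, with the SE taken from the test statistic. They are approximate and somewhat narrow. That of FANCL in MM.1S ran from −0.223 to −0.005 at an unadjusted p of 0.0587 by edgeR's quasi-likelihood test. Contrasts were the IT848 response of MM.1S and of U266, their difference, and MM.1S against U266 under DMSO. Levels are TMM-scaled CPM. DESeq2 1.42.0, upper-quartile scaling, no filter, the most counted transcript per symbol, only the groups compared, the replicate number as a block, a length trend taken out and libraries left out were the alternatives. The block was not in the main fit, since the labels do not say that a number marks a shared culture.

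The members, gene lists and rules were chosen with earlier results of these data known. Library values are given for members called in both lines, the 2 largest called MM.1S responses per role, the 2 largest called U266 responses each way, the 4 largest called response differences and the 3 largest line differences each way. Of genes outside the members, the 2 largest called per direction and line were named, and H2AFX, MCM6 and the exon neighbours were added after their values were seen. Promoter sequences are RefSeq's on GRCh38.p14, while exon overlaps and pseudogene names come from GENCODE release 29.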

Additional observations from a re-analysis of the deposited data

Results flagged for a closer look

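The response to IT848 differed between the lines by a test of the difference itself for 26 members, each given here as the log2 fold change in MM.1S minus that in U266 with its SE, at an adjusted p below 0.05 by edgeR's quasi-likelihood test.

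Among recombination genes the difference was −0.73 ± 0.06 for BLM, −0.59 ± 0.10 for XRCC3, −0.55 ± 0.12 for RAD54L and −0.43 ± 0.07 for BRCA1. It was −0.38 ± 0.11 for BRCA2, −0.33 ± 0.08 for PALB2, −0.31 ± 0.09 for XRCC2 and −0.28 ± 0.06 for BARD1. In the MRN complex it was −0.35 ± 0.07 for MRE11A and 0.17 ± 0.06 for RAD50, the one positive value. Checkpoint genes had −0.52 ± 0.06 (TOPBP1), −0.41 ± 0.06 (CHEK1) and −0.22 ± 0.07 (ATRIP). Fanconi anaemia genes had −0.54 ± 0.07 (BRIP1), −0.53 ± 0.11 (FANCA), −0.40 ± 0.08 (FANCG), −0.40 ± 0.07 (FANCD2) and −0.27 ± 0.05 (FANCI). Mismatch repair genes had −0.61 ± 0.07 (EXO1) and −0.38 ± 0.05 (MSH6). Base excision genes had −0.58 ± 0.06 (UNG), −0.34 ± 0.06 (PARP1), −0.31 ± 0.06 (LIG3) and −0.21 ± 0.05 (APEX1). End joining genes had −0.56 ± 0.09 (PRKDC) and −0.20 ± 0.06 (XRCC5).

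Of the 26 calls, 19 held in all 20 alternatives and 7 were lost in some. Without both libraries with reads of the other line, the calls of APEX1 (adjusted p 0.0778), BARD1 (0.0639), ATRIP (0.146), RAD50 (0.132), XRCC2 (0.0683) and XRCC5 (0.0944) ended. The ATRIP call ended on leaving out any single library other than MM.1S DMSO replicate 3 and IT848 replicate 1 (adjusted p 0.0539 to 0.109). RAD50 lost its call without any library other than U266 DMSO replicate 3 and MM.1S IT848 replicate 1 (0.0508 to 0.0900). For XRCC5 the exceptions were MM.1S DMSO replicate 1 and IT848 replicate 3 (0.0570 to 0.123). XRCC2 kept its call without U266 DMSO replicate 2, MM.1S DMSO replicate 2 or 3, or MM.1S IT848 replicate 1, and lost it without any other (0.0587 to 0.0986). BRCA2 kept its call without U266 DMSO replicate 2, U266 IT848 replicate 1, MM.1S DMSO replicate 2 or MM.1S IT848 replicate 1, and lost it without any other (0.0553 to 0.106). Outside the 26, leaving out 1 library brought calls of the difference for 4 members. These were LIG4 without U266 IT848 replicate 2 (adjusted p 0.0268) or MM.1S IT848 replicate 3 (0.0462), ATR without MM.1S IT848 replicate 1 (0.0341), FANCE without MM.1S DMSO replicate 3 (0.0407) and RAD51C without MM.1S IT848 replicate 3 (0.0166).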

How the results depend on the processing

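Over the alternatives run, no member changed direction with a call. The MM.1S calls held in all 21 for 31 of 36 members, the exceptions being ATM, BRCA2, CHEK2, RAD54B and XRCC1, and the U266 calls for 2 of 4, the exceptions being OGG1 and UNG. The count of members that fell in MM.1S was 32 to 37, and leaving out 1 library gave 32 to 36. In U266 the count was 3 and, leaving out 1 library, 1 to 3. For the response difference, members higher in MM.1S numbered 1, against 2 with DESeq2, the replicate block, the length trend taken out and both of these together, 0 without the low-count filter or without both libraries holding reads of the other line, and 0 to 1 without 1 library.

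Counts over all genes moved more. In U266, 1512 genes were called, against 2273 with block and length trend, 924 without both libraries, and 986 (without DMSO replicate 3) to 1827 without 1 library. The response difference was called for 2924 genes, against 4388 with the block, 1712 without both libraries, and 2208 to 3870 without 1 library. The cause was not tested, beyond fewer libraries entering some fits.

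With the replicate block, 36 members fell and 1 rose in MM.1S, 3 fell and 1 rose in U266, and 7331 and 2155 genes were called in all. The block brought calls of the MM.1S fall for NTHL1 and of the response difference for ATM (adjusted p 0.0364), ATR (0.0311), CHEK2 (0.0397; 0.0140 with the length trend also taken out), FANCE and LIG4, and ended the line differences of BLM, LIG4 and TOPBP1. IT848 and DMSO libraries of the same number had deviations correlated at 0.449, −0.025 and 0.453 in MM.1S and 0.204, 0.187 and −0.039 in U266, so not every pair was above 0.1, not every library correlated best with its own number, and pairing by number is not settled. Depth limits the lowest members most. In MM.1S with IT848 the most counted RAD54B transcript had a mean of 4.49 CPM. FANCM and NTHL1, with 1 transcript each, had 6.21 and 6.62 CPM there.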
